A study of Homo sapiens with 6 samples.

Results

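The 10 genes described here belong to the response of cells to low oxygen. HIF1A encodes a regulator of that response. Cells classically raise the others when oxygen is low: EGLN3, ADM, VEGFA, HILPDA, BNIP3, BNIP3L, CA9, NDRG1 and ANKRD37. The 10 genes were chosen by name, with glycolytic enzymes left out, and were found by Entrez gene ID. They and the gene lists below were chosen with earlier results of these data known. Shares of called genes among them can reflect that choice. All 10 were among the 20824 genes listed in the deposited files, and 9 of them were among the 14812 genes with enough counts to be tested; CA9 was not. The libraries came from A549, an established human lung adenocarcinoma line. One group of 3 libraries was from A549 cells with an shRNA that knocks down C19orf12, and the other group of 3 was from A549 cells with a scrambled shRNA, which the labels treat as wild type. Polyadenylated RNA was sequenced. The 3 knockdown titles carry the same number after the shRNA name, and no label says what it means or whether more than 1 hairpin was used. No label names an oxygen level or a treatment, a vector, a clone or the time after the shRNA was introduced. The labels also do not say whether replicates were separate cultures, so p-values rest on a spread between libraries that may be technical.

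HIF1A encodes the oxygen-regulated subunit of hypoxia-inducible factor (HIF). In oxygenated cells the EGLN prolyl hydroxylases mark the HIF alpha proteins, VHL binds the marked protein and the proteasome removes it; when oxygen is low the protein persists, pairs with ARNT and switches on its targets. Because this control acts on the protein, the HIF1A transcript is not a measure of HIF activity. Many targets serve oxygen supply, pH, lipid storage and removal of mitochondria, and some, such as EGLN3, act back on HIF itself.

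HIF binds DNA at the core letters ACGTG or GCGTG. Promoter windows from RefSeq (GRCh38.p14), which run from 250 bases before to 50 bases after the annotated start, matched 6 of the 10 genes: HIF1A, ADM, CA9, EGLN3, BNIP3 and ANKRD37. On either strand, 5 of these 6 genes held at least 1 match, beside 48.4% of all 35116 promoter windows and 62.2% of the 11612 windows of tested genes. ACGTG alone occurred in 21.4% and GCGTG alone in 36.5% of all windows. The 250 bases upstream of the start are printed 5′ to 3′ on the gene's strand. They are given for the window with the most matches (BNIP3) and for the next one (ANKRD37). Also given are those of ADM, a called gene with 1 GCGTG, and of EGLN3, which has no match. Capitals mark the matches, and a match on the opposite strand reads CACGT or CACGC.
BNIP3 (chr10:131981924-131982173, minus strand): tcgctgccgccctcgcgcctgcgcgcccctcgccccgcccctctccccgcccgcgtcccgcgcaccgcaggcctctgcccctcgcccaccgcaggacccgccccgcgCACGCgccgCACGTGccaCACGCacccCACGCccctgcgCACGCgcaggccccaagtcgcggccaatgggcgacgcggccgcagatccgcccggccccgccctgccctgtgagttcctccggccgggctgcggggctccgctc
ANKRD37 (chr4:185396591-185396840, plus strand): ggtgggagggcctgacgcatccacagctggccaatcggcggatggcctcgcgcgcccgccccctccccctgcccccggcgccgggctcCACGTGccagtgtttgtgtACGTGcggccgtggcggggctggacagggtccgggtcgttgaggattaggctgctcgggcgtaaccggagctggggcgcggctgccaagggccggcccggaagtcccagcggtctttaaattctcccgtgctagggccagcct
ADM (chr11:10304823-10305072, plus strand): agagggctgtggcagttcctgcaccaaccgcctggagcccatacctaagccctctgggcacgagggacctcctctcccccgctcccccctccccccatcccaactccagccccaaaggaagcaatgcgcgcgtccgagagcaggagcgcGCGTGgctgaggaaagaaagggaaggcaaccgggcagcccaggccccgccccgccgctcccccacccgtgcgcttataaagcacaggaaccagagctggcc
EGLN3 (chr14:33951075-33951324, minus strand): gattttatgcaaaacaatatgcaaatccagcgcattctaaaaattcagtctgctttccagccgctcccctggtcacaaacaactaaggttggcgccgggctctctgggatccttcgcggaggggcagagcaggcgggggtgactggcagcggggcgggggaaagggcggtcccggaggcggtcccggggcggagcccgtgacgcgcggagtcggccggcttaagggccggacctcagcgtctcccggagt
BNIP3 had 6 matches between positions -143 and -104 from the start, of which 4 were GCGTG and 2 were ACGTG read from a single CACGTG on both strands. A window with 6 or more matches was rare, at 0.923% of all windows, and that of BNIP3 was 80.7% G and C. ANKRD37 had 3 matches of ACGTG, 2 of them again from a single CACGTG, and 10.1% of all windows had 3 or more. ADM had 1 GCGTG at -101, HIF1A 1 GCGTG at -204 in the first of its 2 windows, and CA9 1 ACGTG on the opposite strand at -18. A match is a description of letters and not a measured binding site.

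Totals of estimated counts were 10229890 to 10647587 per library. C19orf12 itself stood at 24.2, 26.4 and 25.2 CPM (counts relative to library size, scaled by TMM) in the knockdown libraries, against 42.5, 41.1 and 63.3 CPM in scramble replicates 1, 2 and 3. The knockdown level was thus 51.6% of the scramble mean, a log2 fold change of -0.95 ± 0.20 (SE; edgeR quasi-likelihood test, Benjamini-Hochberg adjusted p = 0.0150), and 60.4% of the mean of scramble replicates 1 and 2. Scramble replicate 3 stood apart: across genes its log2 CPM correlated with scramble replicates 1 and 2 at 0.954 and 0.955, whereas the correlation between scramble replicates 1 and 2 was 0.993 and the lowest between knockdown libraries was 0.992. Its departure followed GC content, with a median of -0.999 on the log2 scale in the lowest GC decile and of 0.49 in the highest. With all 6 libraries the fit put the typical spread between replicates at 18.9% of the level, and at 2.97% without scramble replicate 3. Results for the members are therefore given with all 6 libraries, without scramble replicate 3, and with all 6 after a correction for GC content and length. Calls of single genes on the further lists are from the fit of all 6 libraries unless stated. A gene not called in that fit is not thereby shown to be unchanged. The 10 genes used as A549 epithelial markers were EPCAM, CDH1, KRT7, KRT8, KRT18, KRT19, CEACAM6, AKR1B10, AKR1C1 and ALDH1A1. All 10 were detected, with sums of 28209 to 28629 CPM in knockdown and 17933 to 20278 CPM in scramble libraries. A sum does not show how each marker moved. Of 12 markers of other cell types 10 were listed in the files, CD3E was listed in none, 4 (PTPRC, PECAM1, COL1A1 and ACTA2) reached a mean of 1 CPM, and the sum was 37.4 to 40.7 CPM in knockdown and 53.8 to 67.1 CPM in scramble libraries; the part of either marker sum in the results was not tested. In bulk RNA, fewer cells of a kind and less RNA per cell cannot be told apart.

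HILPDA and ADM fell in the C19orf12 knockdown, to 41.2% and 55.4% of the mean scramble CPM. No member was called higher in the fit of all 6 libraries. The remaining 7 tested members had log2 fold changes between -0.38 and 0.44 and did not pass an adjusted p of 0.05. Thus 2 of 9 tested members were called, both lower, where 11.5% of all tested genes were called, 5.64% lower and 5.89% higher. The median log2 fold change was -0.19 for the 9 members and 0.02 for all genes tested. Without scramble replicate 3, 8 of 9 were called, where 49.5% of all genes were called, 25.7% higher and 23.8% lower: HIF1A, ADM, HILPDA, VEGFA, BNIP3 and BNIP3L were lower, NDRG1 and EGLN3 were higher, and ANKRD37 was not called. With the GC and length correction 7 were called, 6 lower and 1 higher (NDRG1), where 34.1% of all genes were called, 18.7% lower and 15.4% higher. The 3 knockdown and 3 scramble libraries did not overlap in CPM for 5 members, of which EGLN3 was higher and ADM, HILPDA, VEGFA and BNIP3 were lower; of all tested genes 37.0% did not overlap, with 18.4% higher and 18.6% lower.

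**Figure D1:**
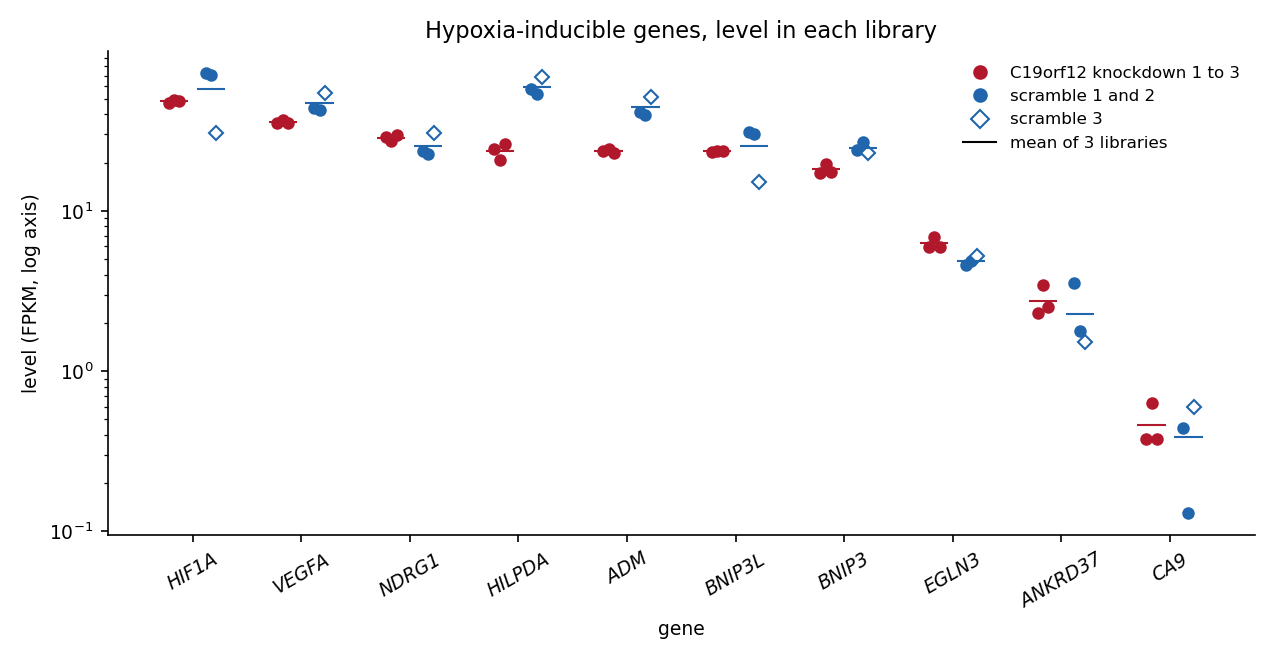
Level of each of the 10 genes in FPKM (fragments scaled for length and depth, log axis) in every library; the knockdown libraries stand left of the scramble libraries, scramble replicate 3 is the open diamond, and the bars are means of 3 libraries. ADM and HILPDA in knockdown lie below all 3 scramble libraries, while the knockdown points of HIF1A, BNIP3L and NDRG1 lie between scramble replicate 3 and the other 2 scramble libraries.

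FPKM, which accounts for transcript length, allows levels to be compared between genes. In the knockdown libraries HIF1A was highest with 48.3 ± 0.811 FPKM (SD, n = 3), followed by VEGFA with 36.1 ± 0.941 FPKM and NDRG1 with 28.6 ± 1.34 FPKM, with no overlap between neighbours. HILPDA, ADM and BNIP3L came next at 20.9 to 26.2 FPKM and overlapped one another. BNIP3 with 18.1 ± 1.21 FPKM, EGLN3 with 6.30 ± 0.540 FPKM, ANKRD37 with 2.76 ± 0.609 FPKM and CA9 with 0.463 ± 0.144 FPKM were each apart from their neighbours. Over all 3 scramble libraries HILPDA had the highest mean, with 59.7 ± 7.68 FPKM, ahead of HIF1A with 58.1 ± 23.8 FPKM, VEGFA with 46.9 ± 6.44 FPKM and ADM with 44.2 ± 6.47 FPKM, and each of these overlapped the next. NDRG1, BNIP3L and BNIP3, with means of 25.6, 25.5 and 24.6 FPKM, overlapped in the same way. EGLN3 with 4.90 ± 0.291 FPKM, ANKRD37 with 2.27 ± 1.10 FPKM and CA9 with 0.390 ± 0.239 FPKM closed the order, each apart from its neighbours. Without scramble replicate 3 the upper part of the scramble order turned: HIF1A led with a mean of 71.85 FPKM, ahead of HILPDA with 55.4 FPKM, and BNIP3L with 30.7 FPKM and BNIP3 with 25.5 FPKM stood above NDRG1 with 23.1 FPKM.

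HIF1A had 199, 206 and 202 CPM in the knockdown libraries, against 287, 278 and 130 CPM in scramble replicates 1, 2 and 3. The knockdown libraries were thus close together, below 2 scramble libraries and above the third. All 6 libraries gave a log2 fold change of -0.19 ± 0.27 (SE; adjusted p = 0.723). It was -0.48 without scramble replicate 3 (adjusted p = 6.67e-10) and -0.35 with the GC and length correction (adjusted p = 0.00695). HIF1A transcripts are 37.6% G and C, which puts the gene in the lowest GC decile, and scramble replicate 3 lay 1.12 below the mean of scramble replicates 1 and 2 (a shift of -1.12 on the log2 CPM scale). The pattern in which all knockdown libraries lie above scramble replicate 3 and below the other 2 was found in 11.3% of all tested genes and in 526 of the 1424 tested genes of that decile (36.9%). By gene span, introns included, HIF1A overlaps HIF1A-AS1 and HIF1A-AS2 on the opposite strand. Overlap of exons was not checked. The counting is not stated to use strand, which would in any case not separate genes on the same strand. Whether reads of these genes were mixed is therefore not known.

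EGLN3, a prolyl hydroxylase that marks HIF alpha proteins and is itself a HIF target, had 16.7, 19.2 and 16.7 CPM in knockdown libraries, against 11.5, 12.7 and 14.5 CPM in scramble libraries. Every knockdown library was above every scramble library. Its log2 fold change was 0.44 ± 0.17 with all 6 libraries (adjusted p = 0.134), 0.53 without scramble replicate 3 (adjusted p = 0.000536) and 0.36 with the GC and length correction (adjusted p = 0.0631). By gene span EGLN3 overlaps EGLN3-AS1 on the opposite strand, and the protein-coding SPTSSA and a pseudogene on the same strand. HILPDA and BNIP3L also overlap other annotated genes on the same strand, and VEGFA, BNIP3 and BNIP3L on the opposite strand.

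ADM encodes adrenomedullin, a secreted peptide that widens blood vessels. It had 38.7, 39.7 and 37.2 CPM in the knockdown libraries, against 63.1, 60.7 and 85.2 CPM in the scramble libraries. All knockdown values lay below all scramble values, and scramble replicate 3 was the highest. The log2 fold change was -0.85 ± 0.18 (adjusted p = 0.0143), -0.68 without scramble replicate 3 (adjusted p = 6.93e-09) and -0.75 with the GC and length correction (adjusted p = 0.000114). Leaving out any 1 knockdown library ended the call with all other libraries kept, at adjusted p-values of 0.0816 to 0.10, with log2 fold changes of -0.88 to -0.83.

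VEGFA, the main growth factor for blood vessels, had 124, 129 and 121 CPM in knockdown libraries, against 143, 135 and 188 CPM in scramble libraries. The groups did not overlap, but the nearest values, 129 and 135 CPM, were close. In log2 terms the change was -0.31 ± 0.17 (adjusted p = 0.289), -0.15 without scramble replicate 3 (adjusted p = 0.0107) and -0.24 with the GC and length correction (adjusted p = 0.0297). VEGFA was the member with the most annotated transcripts in the deposited files, 20 in all.

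HILPDA encodes a lipid droplet protein that inhibits the triglyceride lipase ATGL and so favours fat storage in hypoxic cells. Its values were 34.7, 30.4 and 37.8 CPM in the knockdown libraries and 77.8, 72.2 and 99.8 CPM in the scramble libraries. The highest knockdown value was below the lowest scramble value by a wide margin. The log2 fold change was -1.28 ± 0.18 with all 6 libraries (adjusted p = 0.00224), -1.13 without scramble replicate 3 (adjusted p = 1.92e-11) and -1.21 with the GC and length correction (adjusted p = 3.49e-05). It stayed called whichever single library was left out, with adjusted p-values up to 0.0241. Across the members it had the largest change in each of these 3 fits.

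BNIP3 and BNIP3L are related receptors on the outer mitochondrial membrane that mark mitochondria for removal by autophagy. BNIP3 had 29.3, 33.1 and 29.6 CPM in knockdown libraries, against 38.3, 42.2 and 39.1 CPM in scramble libraries. Scramble replicate 3 lay between the other 2 scramble libraries, and no knockdown value reached any of them. Its log2 fold change was -0.38 ± 0.15 (adjusted p = 0.155), -0.39 without scramble replicate 3 (adjusted p = 0.000209) and -0.51 with the GC and length correction (adjusted p = 0.00344). GENCODE 29 names 39 BNIP3 pseudogenes, so counts of this gene are uncertain where reads could be shared. BNIP3L had 84.5, 85.4 and 84.9 CPM in knockdown libraries, against 105, 102 and 54.9 CPM in scramble replicates 1, 2 and 3. As for HIF1A, the knockdown libraries lay between scramble replicate 3 and the others. The log2 fold change was -0.04 ± 0.24 (adjusted p = 0.943), -0.29 without scramble replicate 3 (adjusted p = 5.45e-05) and -0.23 with the GC and length correction (adjusted p = 0.0269). With scramble replicate 1 or 2 left out instead, its sign turned, to 0.11 and 0.07, neither of them called. Its GC content was 38.9% and the shift of scramble replicate 3 was -0.91 on the log2 scale.

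NDRG1, a stress-responsive gene induced by hypoxia and metal chelators, had 92.7, 87.3 and 95.4 CPM in the knockdown libraries, against 71.5, 67.4 and 99.2 CPM in scramble replicates 1, 2 and 3. The knockdown values were above those of scramble replicates 1 and 2 and below that of scramble replicate 3. The log2 fold change was 0.21 ± 0.18 (adjusted p = 0.536), 0.40 without scramble replicate 3 (adjusted p = 3.92e-06) and 0.29 with the GC and length correction (adjusted p = 0.0192).

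CA9, the cell-surface carbonic anhydrase IX that acidifies the outside of hypoxic tumour cells, was close to the detection limit. It had 6, 10 and 6 counts in knockdown libraries, against 7, 2 and 10 counts in scramble libraries. In a fit with no filter on low counts the log2 fold change was 0.29 ± 0.56 (adjusted p = 0.816), leaving out scramble replicate 3 gave 0.79 ± 0.61 (adjusted p = 0.388), and a change was not detectable at this depth. CA9 overlaps ARHGEF39 on the opposite strand. ANKRD37, an ankyrin repeat protein gene known as a HIF target, was also low, with 22, 33 and 24 counts in knockdown and 34, 17 and 15 counts in scramble libraries. The groups overlapped, and the log2 fold change was 0.34 ± 0.35 (adjusted p = 0.603), 0.15 without scramble replicate 3 (adjusted p = 0.734) and 0.39 with the GC and length correction (adjusted p = 0.504). ANKRD37 overlaps UFSP2 on the opposite strand.

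**Figure D2:**
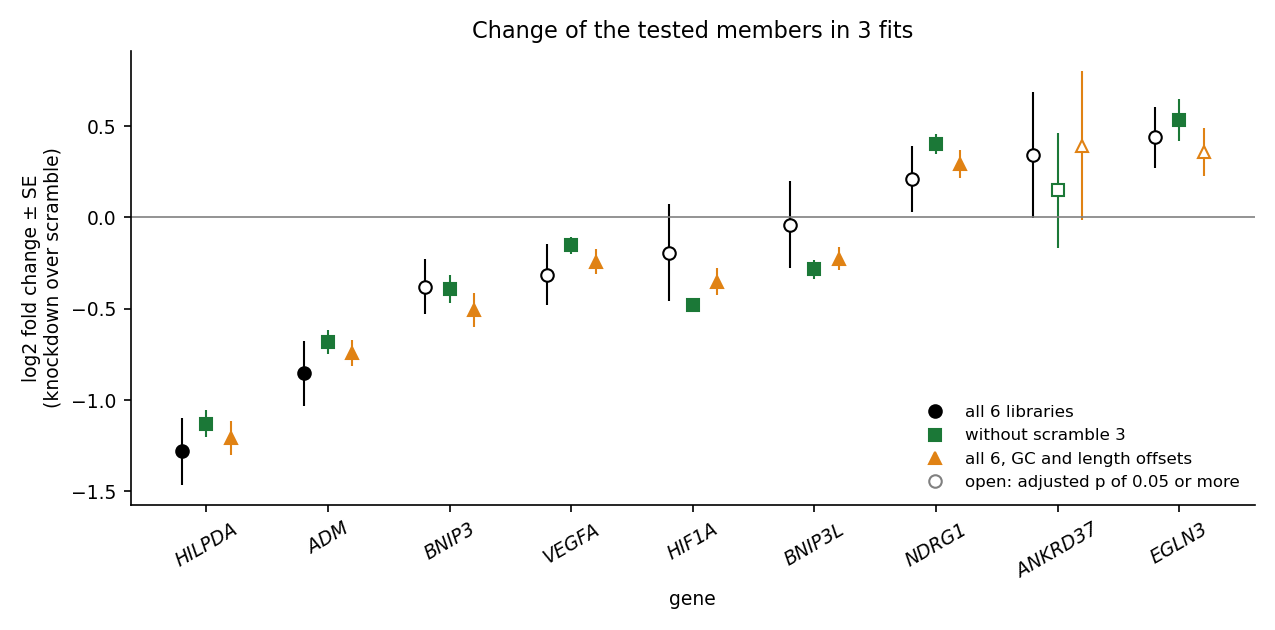
Log2 fold change of knockdown over scramble with its SE for the 9 tested members in 3 fits: all 6 libraries, without scramble replicate 3, and all 6 with GC and length offsets; filled symbols have an adjusted p under 0.05. ADM and HILPDA are filled in all 3 fits, and HIF1A is at -0.19, -0.48 and -0.35.

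The members differed in how scramble replicate 3 departed from the other scramble libraries, and most followed their GC content. HIF1A and BNIP3L, at 37.6% and 38.9% GC, were lower in it. BNIP3, at 44.8%, was close to 0 with a shift of -0.04 on the log2 scale, and EGLN3, at 47.0%, had 0.25. HILPDA, VEGFA, NDRG1 and ADM, with GC contents of 52.8% to 57.6%, had shifts of 0.41 to 0.51. ANKRD37, at 55.3%, had -0.50 and CA9, at 60.1%, had 0.73, both on few counts. For HILPDA and ADM the fall was present against scramble replicates 1 and 2 alone, to 45.7% and 62.3% of their mean.

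**Figure D3:**
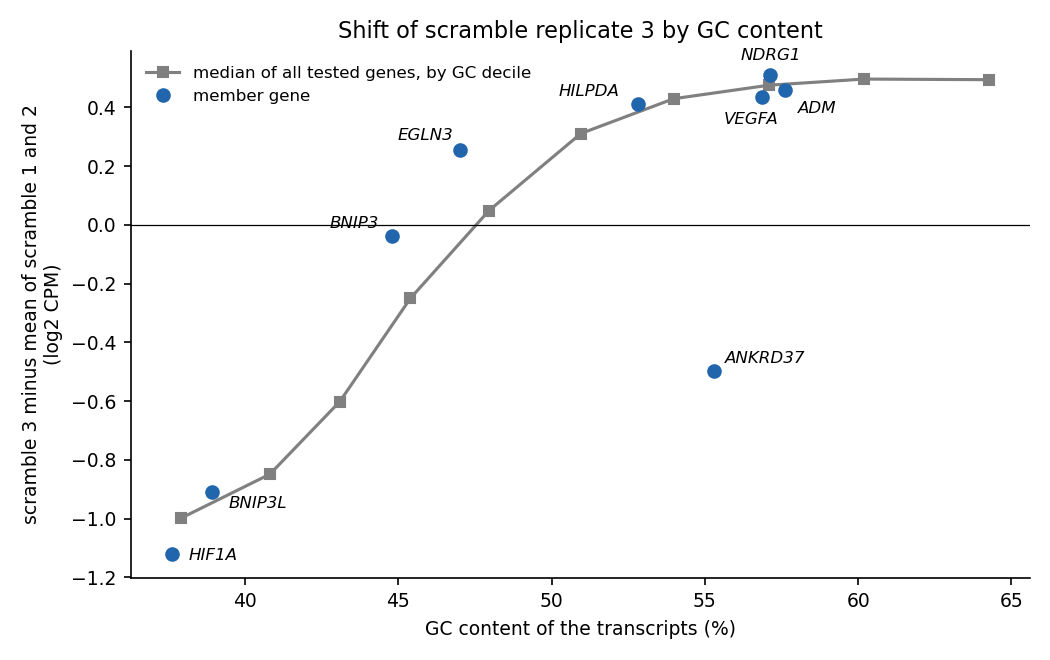
Difference in log2 CPM between scramble replicate 3 and the mean of scramble replicates 1 and 2, plotted against the GC content of the transcripts in percent; points are the tested members and squares the medians of all tested genes by GC decile. The medians run from -0.999 at 37.9% GC to 0.49 at 64.3% GC, and HIF1A lies at -1.12.

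The 3 genes whose profile over the 6 libraries was most like that of HIF1A, by Euclidean distance of centred log2 CPM among tested genes whose mean reached 5 CPM, were ZFP90 (distance 0.0515), LYSMD3 (0.0771) and TRAPPC6B (0.0786). ZFP90 had 35.2, 36.5 and 35.1 CPM in knockdown libraries, against 50.5, 49.7 and 22.0 CPM in scramble libraries. LYSMD3 and TRAPPC6B showed the same order of libraries, with 15.2 and 17.9 CPM in scramble replicate 3. Transcripts of LYSMD3 and TRAPPC6B are 35.4% and 36.6% G and C, and those of ZFP90 49.5%. The GC decile of ZFP90 had a median shift of 0.31 in scramble replicate 3, so ZFP90 did not follow its decile. Knockdown libraries all between scramble replicate 3 and the other scramble libraries were found in 11.3% of all tested genes. Shared regulation of these genes with HIF1A was not tested.

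The mean transcript length in the files, which moves with the mix of transcripts counted, could be compared for the 5 members with more than 1 transcript. VEGFA had 3390.2, 3380.5 and 3315 bases in knockdown libraries, against 3370.3, 3300.4 and 3326 bases in scramble libraries, and the groups overlapped (exact permutation test, 2-sided, p = 0.4). EGLN3 averaged 2714 ± 13.8 bases in knockdown and 2669 ± 69.6 bases in scramble libraries (exact permutation p = 0.4). HIF1A, HILPDA and NDRG1 had differences in mean length of 1.25, -3.43 and -1.86 bases (exact permutation p = 0.6, 1 and 1). Adjusted over the 5 genes every p was 1, and 3 against 3 libraries cannot give a p under 0.1.

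Among 24 HIF subunits and regulators, a list that includes HIF1A and EGLN3, 1 gene rose and 3 fell, or 16.7% of those tested, beside 11.5% of all tested genes, and the median log2 fold change was -0.10, beside 0.02. EGLN1, the main oxygen-sensing prolyl hydroxylase and itself a HIF target, rose to 159 ± 6.63 CPM in knockdown, against 91.7 ± 26.4 CPM in scramble libraries (log2 fold change 0.79, adjusted p = 0.0480; with RLE size factors adjusted p = 0.0542). ARNT2, a partner subunit related to ARNT, fell to 52.0 ± 0.573 CPM in knockdown, against 108 ± 26.9 CPM in scramble libraries (log2 fold change -1.05, adjusted p = 0.00825). SIAH2 and SIAH1, ubiquitin ligases that degrade EGLN enzymes, fell by 0.92 and 0.65 on the log2 scale (adjusted p = 0.0184 and 0.0245). Without any 1 of the knockdown replicates all 4 calls were lost, and EGLN1 and SIAH1 were also lost without scramble replicate 1 or 2, at adjusted p-values of 0.0543 to 0.181 in all. Without any 1 knockdown library edgeR called 0 of 24 genes, where 4.85% to 5.09% of all tested genes were called. At an unadjusted edgeR p under 0.05 stood 4 to 5 of the 24, beside 2635 to 2684 of the 15036 to 15049 tested genes. With all 6 libraries edgeR and DESeq2 each called 4, and DESeq2 was not run without a knockdown library. EPAS1, which encodes the HIF-2 alpha protein, averaged 1018 ± 24.0 CPM in knockdown and 1210 ± 175 CPM in scramble libraries and was not called (log2 fold change -0.25, adjusted p = 0.326). LIMD1, a scaffold that brings EGLN enzymes and VHL together, was not called either, at -0.40 (adjusted p = 0.155). Without scramble replicate 3, 6 of the 24 genes were higher and 11 lower, 70.8% in all, where 49.5% of all tested genes were called.

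Of 29 receptors, partners and relatives of the members 22 were tested, and 2 rose and 4 fell (27.3%, beside 11.5% of all tested genes; median log2 fold change -0.18, beside 0.02). ADM2, the peptide hormone related to ADM, fell like ADM, to 18.8 ± 0.857 CPM in knockdown, against 46.5 ± 9.0 CPM in scramble libraries (log2 fold change -1.30, adjusted p = 0.00208). The adrenomedullin receptor gene CALCRL did not pass the filter with all 6 libraries and had 2, 2 and 2 counts in knockdown, against 14, 17 and 6 counts in scramble libraries; it and STC2 below were named after their values were seen. Of its coreceptors, RAMP1 and RAMP2 had at most 1 count in any library and RAMP3 was listed in no file; a count of 0 allows up to 3 counts. NRP2, a coreceptor for VEGF family ligands, rose to 174 ± 9.31 CPM in knockdown, against 94.1 ± 9.88 CPM in scramble libraries (log2 fold change 0.89, adjusted p = 0.00528). NRP1, its relative, averaged 291 ± 4.96 CPM in knockdown and 287 ± 88.5 CPM in scramble libraries and was not called with all 6 libraries. CA2, a cytosolic carbonic anhydrase, rose to 9.44 ± 2.34 CPM in knockdown, against 3.18 ± 0.551 CPM in scramble libraries (log2 fold change 1.57, adjusted p = 0.00332). CA12, the cell-surface relative of CA9, was abundant at 1394 ± 25.8 CPM in knockdown and 1567 ± 260 CPM in scramble libraries and was not called. PLIN2, which coats lipid droplets as HILPDA does, fell by 1.15 on the log2 scale (adjusted p = 0.0202) at levels of 1.86 ± 0.320 CPM in knockdown and 4.15 ± 0.849 CPM in scramble libraries; the call was lost without any 1 of the knockdown libraries, at adjusted p-values of 0.0662 to 0.107. MAP1LC3B, the autophagosome protein that BNIP3 and BNIP3L bind, fell to 72.7 ± 0.551 CPM in knockdown, against 133 ± 3.83 CPM in scramble libraries (log2 fold change -0.87, adjusted p = 0.00390). BCL2L1, an inhibitor of apoptosis that binds BNIP3, was not called at -0.49 (adjusted p = 0.118). Without scramble replicate 3, 6 of 23 tested genes were higher and 9 lower, or 65.2%, beside that share of 49.5% for all genes.

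Among 60 other genes known to be induced by hypoxia, 54 were tested and 19 were called (35.2%, beside 11.5% of all tested genes), 9 higher and 10 lower, with a median log2 fold change of -0.03, beside 0.02. EGLN1, CA12 and PLIN2 are on this list as well as on the others. Like the other lists, it was chosen with earlier results of these data known, so its share of called genes can reflect that choice. EFNA1, an ephrin ligand, showed the largest rise named here, to 217 ± 0.828 CPM in knockdown, against 35.5 ± 9.22 CPM in scramble libraries (log2 fold change 2.61, adjusted p = 7.16e-05). STC1, a secreted stanniocalcin, rose to 98.6 ± 2.62 CPM in knockdown, against 30.2 ± 8.25 CPM in scramble libraries (log2 fold change 1.71, adjusted p = 0.00119), while its relative STC2 fell by 0.62 on the log2 scale (adjusted p = 0.0231). The STC2 call was lost without any 1 of the knockdown libraries or scramble replicate 1, at adjusted p-values of 0.0597 to 0.163. PPP1R3C, which targets a phosphatase to glycogen, rose to 30.9 ± 2.31 CPM in knockdown, against 9.77 ± 1.08 CPM in scramble libraries (log2 fold change 1.66, adjusted p = 0.000352). TGFA, an EGF receptor ligand, fell by 1.67 on the log2 scale (adjusted p = 0.00123). IGFBP3, CA12 and BHLHE40, the most abundant uncalled genes of the list, had log2 fold changes of 0.51, -0.17 and -0.11. Of the 19 calls, 10 held whichever library was left out. The same share was not counted over all genes. Their calls fell from 1708 to between 729 and 766 without any 1 knockdown library. Without scramble replicate 3, 19 of the 54 tested genes were higher and 23 lower, or 77.8%, again beside 49.5% of all genes.

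**Figure D4:**
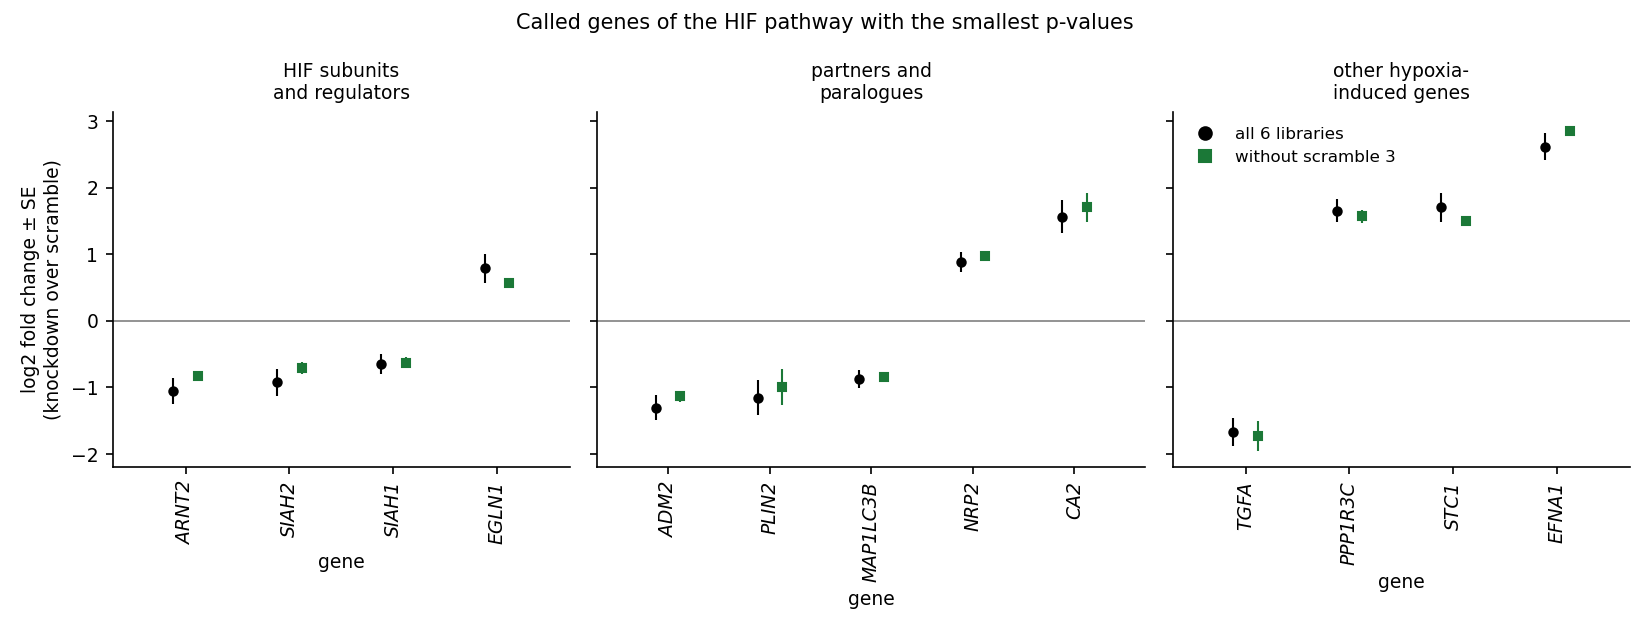
Log2 fold change of knockdown over scramble with its SE for 4, 5 and 4 called genes of the 3 lists, taken from those with the smallest p-values in the fit of all 6 libraries, with the value without scramble replicate 3 beside it. The genes drawn lie on both sides of 0 in each list, from -1.67 for TGFA to 2.61 for EFNA1.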

How the data were processed

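RNA was extracted with Trizol and libraries were made with oligo-dT beads and a TruSeq RNA kit, per the labels' protocols. The authors deposited, per library and gene, RSEM expected counts (estimated counts, which need not be whole). Per the file headers the same files hold FPKM, scaled by the authors for length and depth, and a mean transcript length, another value of the deposited files, in bases. The submitters' processing notes name BWA, Bowtie2, RSEM and hg19; their roles and versions were not given in the sources used here. Genes at 0 were not listed and were taken as 0 counts; 97 of 20824 IDs, with 0.147% of counts, matched no symbol.

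Expected counts were rounded and compared with edgeR 4.0.16 in R 4.3.3 (filterByExpr with a minimum count of 10 and total of 15, TMM, glmQLFit, glmQLFTest, 2-sided, Benjamini-Hochberg adjusted p under 0.05 over all 14812 genes). SEs were derived from the fold change and the F statistic; errors of levels are SDs of 3 libraries. Profiles and shifts used log2(CPM + 0.5). GC content came from GENCODE 29 transcripts, and its offsets were splines with 5 degrees of freedom on 14231 genes. The tests were checked on simulated data. That check covered edgeR on 6 libraries. It did not cover DESeq2, limma, the permutation test or the fits with a library left out. Alternatives were RLE and upper-quartile scaling, 2 other filters, DESeq2 1.42.0, limma 3.58.1 with and without quality weights, GC and length offsets, the replicate number as a block, and each library left out; 4 fits without scramble replicate 3, with no filter, GC offsets, DESeq2 or the replicate block, were added after seeing the data. Sequences were printed from RefSeq; protein sequences were not used here. Python 3.11.15 was used for tables and matplotlib 3.10.9 for figures.

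The members and lists were chosen with earlier results of these data known. Named are all members, C19orf12, from each list up to 5 called genes with the smallest p and up to 3 uncalled genes with the highest mean CPM, and the 3 genes closest to HIF1A in profile; a gene that this rule takes is not reported here.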

Additional observations from a re-analysis of the deposited data

How the results depend on the processing

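Counts of called genes changed with scramble replicate 3 and with how it was treated. With 1 library left out they ran from 729 to 7439 over all genes, 1 to 8 for the members, 0 to 17 for the HIF regulators, 4 to 15 for the partners and 10 to 42 for the other hypoxia-induced genes; the highest was always without scramble replicate 3. In that order of lists, limma with quality weights called 7585, 8, 15, 14 and 41, and GC and length offsets called 4858, 7, 9, 11 and 33. The replicate block with these offsets called 4175, 5, 7, 9 and 31. Without scramble replicate 3, GC offsets gave 7328, 8, 16, 17 and 41, DESeq2 gave 5462, 8, 12, 12 and 35, no filter gave 6708, 8, 13, 14 and 39, and the replicate block gave 7042, 8, 16, 16 and 41. RLE and upper-quartile scaling and both filters left each of these counts within 1.5 times that of the 6-library fit. Deviations of same-numbered libraries from their group means had correlations of -0.0364, 0.00228 and -0.0238 for numbers 1, 2 and 3. The departure of scramble replicate 3 weighs on the deviations of all scramble libraries. These correlations therefore cannot show whether same-numbered libraries were paired. The replicate block alone called 1654 genes in all, 2 members, 3 regulators, 7 partners and 18 others. BNIP3L turned to 0.016 on the log2 scale with the replicate block and to 0.019 with limma-voom, and ran from -0.29 to 0.11 with 1 library left out, above 0 without scramble replicate 1 or 2. The HIF1A length difference was -0.977 bases without scramble replicate 3, against 1.25 with it. The cause was not tested. HILPDA was called in every fit tried. CA9 and ANKRD37 rest on few counts, which limits what they can show.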
